A study of Mus musculus with 8 samples.

Results

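Notch receptors, their ligands and a group of direct target genes were followed in 8 RNA-seq libraries of mouse kidney cells. The 10 genes were taken by symbol from the deposited table of 22274 genes: the receptors Notch1, Notch2, Notch3 and Notch4, the ligands Jag1, Jag2 and Dll1, and the targets Hes1, Hey1 and Nrarp. All 8 libraries come from RFB, a line that the labels place in the kidney and call fibroblast. The tested samples are 4 libraries of RFB cells given both chaetocin and TGF-β, and they are set against 4 libraries given TGF-β without chaetocin. Chaetocin, made by a fungus, inhibits SUV39 histone methyltransferases, which place a repressive methyl mark on histone H3, and is also known to hit redox enzymes. TGF-β is a cytokine that drives matrix production in fibrosis. Every cell therefore carried TGF-β, and no value here describes the effect of TGF-β itself. The labels give no genotype, dose, time or origin of the line, a knockdown named in the design text of the series appears on no sample label, and no label says whether libraries of a group came from separate cultures.

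Notch is a receptor at the cell surface that is switched on by a Jagged or Delta ligand on a neighbouring cell. Pulling by the ligand exposes a site for an ADAM protease, the γ-secretase complex then frees the intracellular domain, and this domain joins the DNA-binding protein RBPJ and a Mastermind coactivator to turn on HES, HEY and NRARP genes. In the kidney the pathway patterns the early nephron and is active again in injured tubules and in fibrosis.

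With chaetocin, 4 of the 10 genes rose and 6 fell, and the direction was mixed within each role. The ligand Jag1, by far the most abundant ligand, fell 4.81-fold in mean CPM, whereas its paralog Jag2 rose. Among the receptors Notch1 rose, and Notch2, Notch3 and Notch4 fell. Among the targets Hey1 and Nrarp rose, and the decrease of Hes1 was small and depended on scaling. A rise or fall here is an adjusted p under 0.05 in edgeR's quasi-likelihood test with Benjamini-Hochberg adjustment over the 14608 genes tested, and every adjusted p below comes from it. By that rule 80.7% of all genes were called, 42.0% as higher and 38.8% as lower with chaetocin, so being called sets no gene apart, and size, level and direction say more. The median log2 fold change was -0.32 over the 10 genes and 0.02 over all genes tested. The CPM values of the groups did not overlap for 9 of the 10 genes, the exception being Hes1, and did not overlap for 74.7% of all genes tested.

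The libraries held 14421225 to 22591935 counts with chaetocin and 20135312 to 23664084 with TGF-β alone. The first chaetocin library was the deepest of its group, the others reaching at most 15084876 counts. Levels are given as CPM, counts scaled by TMM to a common library size, and 3 counts correspond to 0.127 to 0.208 CPM. Markers of epithelium and of fibroblasts were both present in cells labelled fibroblast. Krt8, a keratin of simple epithelia, averaged 3615 CPM with chaetocin and 1582 CPM with TGF-β alone, and the epithelial adhesion gene Epcam averaged 301.6 and 285.3 CPM. Of the fibroblast list, the mesenchymal filament gene Vim averaged 442 CPM with chaetocin and 1163 CPM with TGF-β alone, and the collagen genes Col5a1 and Col1a1 averaged 72.3 and 58.1 CPM with chaetocin, against 239.1 and 233 CPM with TGF-β alone. The matrix proteoglycan genes Lum and Dcn were the lowest of that list with TGF-β alone. They had 19 and 160 counts in all 4 chaetocin libraries together, against 1 and 11 counts in the TGF-β libraries. Markers of other cells moved between the groups too, and those of muscle and endothelium stand beside the genes they bear on. All marker counts stand beside 42.0% of all genes tested called higher and 38.8% called lower. Of 10 fibroblast markers tested 1 was higher, Dcn, and 6 were lower, with a sum of 565.6 to 739.7 CPM with chaetocin and 1665 to 1766 CPM with TGF-β alone, and of 8 macrophage markers 2 were higher and 6 lower, with sums of 143 to 175 and 268 to 305 CPM. The 8 epithelial markers, 5 higher and 3 lower, summed to 8162 to 8518 CPM with chaetocin and 5227 to 5387 CPM with TGF-β alone. The largest differences in CPM were those of the keratin genes Krt8, given above, and Krt18, at 1783 and 812 CPM. Krt7 and Krt19 rose as well, and Epcam by only 0.08 on the log2 scale. Cldn4, Pax8 and Cdh1 fell, with log2 fold changes of -0.51, -0.49 and -0.07, so the higher sum does not describe every epithelial marker. In bulk RNA, fewer cells of a type and less RNA per cell cannot be told apart.

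Promoter sequence from RefSeq (GRCm38.p6), the 250 bases before the transcript start, was matched for 8 of the 10 genes. Hes1 and Hey1 are named only. The windows shown belong to Jag1, the gene with the largest change, to Notch1 and Notch3, receptors that moved in opposite directions, and to Nrarp, a target that rose. Stretches that GENCODE M21 annotates as exon were left out of the printed sequence only. Motifs and CpG below were searched in all 250 bases of each window, exon included, and the 8 genes had 9 windows. Exon made up 250 bases of the Jag2 window, 153 of a Dll1 window and 124 of the Jag1 window. The Jag1 stretch is chr2:137116645-137116770, minus strand. The Notch1 stretch, chr2:26503825-26504072, minus strand, lies inside the longer GENCODE span of the gene but outside its exons. The Notch3 stretch is chr17:32166891-32167140, minus strand, and the Nrarp stretch is chr2:25180508-25180757, plus strand. For Notch3, and for the Dll1 window without exon bases, the bases after the RefSeq start were in no GENCODE M21 transcript of the gene. The start is less certain for these windows. Capitals mark matches on either strand to CACGTG (an E box) or CACNAG (an N box), letters that HES and HEY proteins can bind.
Jag1: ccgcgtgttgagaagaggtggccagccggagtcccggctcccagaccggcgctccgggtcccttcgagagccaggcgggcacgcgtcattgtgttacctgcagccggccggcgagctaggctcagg
Notch1: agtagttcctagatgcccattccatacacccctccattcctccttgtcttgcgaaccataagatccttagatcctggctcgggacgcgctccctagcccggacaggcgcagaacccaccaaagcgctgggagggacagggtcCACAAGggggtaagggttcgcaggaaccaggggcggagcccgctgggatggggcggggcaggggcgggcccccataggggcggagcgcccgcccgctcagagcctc
Notch3: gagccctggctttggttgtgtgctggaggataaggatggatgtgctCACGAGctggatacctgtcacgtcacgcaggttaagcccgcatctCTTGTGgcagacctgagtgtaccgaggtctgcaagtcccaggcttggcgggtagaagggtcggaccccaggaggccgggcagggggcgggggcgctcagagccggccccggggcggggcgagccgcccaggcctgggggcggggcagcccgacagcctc
Nrarp: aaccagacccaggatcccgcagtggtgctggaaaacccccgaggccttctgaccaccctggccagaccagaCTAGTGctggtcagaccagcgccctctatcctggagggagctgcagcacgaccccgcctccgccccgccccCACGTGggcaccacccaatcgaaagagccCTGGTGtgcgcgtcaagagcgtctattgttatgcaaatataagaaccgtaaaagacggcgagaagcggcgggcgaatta
TGGGAA, the core letters that RBPJ binds, was in the window of 0 of the 8 genes and in 21.6% of the 32851 RefSeq promoter windows of the same length, searched on both strands. The longer RBPJ forms GTGGGAA and ATGGGAA, which contain that core, were in 0 of the 8 as well, and in 5.42% and 4.34% of all windows. No match says only that these letters are not in this window. CACNAG was present in Notch1, Notch2, Notch3 and Nrarp, that is in 4 of the 8 genes, and in 36.7% of all windows. CACGTG, which shares no position with a CACNAG match in these windows, was found in Nrarp alone, 108 to 103 bases before the start, and in 6.02% of all windows. TGACTCA, the AP-1 site, and the SMAD letters GTCTAGAC and AGCCAGACA were in 0 of the 8 genes, against 4.46%, 0.167% and 0.301% of all windows. The Jag1 window held 20 CpG dinucleotides and the windows of Notch1, Notch3 and Nrarp 16, 17 and 18, where the median of all windows was 6.

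Notch1, one of the most widely used receptors of the family (ENSMUSG00000026923, chr2:26457903-26516663, minus strand), measured 28.2, 28.9, 30.1 and 29.6 CPM in the chaetocin libraries, against 15.9, 16.5, 19.5 and 19.6 CPM with TGF-β alone. Every chaetocin library was above every TGF-β library. The means were 29.2 ± 0.816 and 17.9 ± 1.94 CPM (SD, n = 4 each), a log2 fold change of 0.70 ± 0.06 (SE; adjusted p = 1.173e-10 by edgeR with Benjamini-Hochberg adjustment). Notch1 was the single receptor of the 4 that rose.

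Notch2, the receptor needed for proximal nephron formation (ENSMUSG00000027878, chr3:98013527-98150361, plus strand), measured 145, 151, 164 and 154 CPM with chaetocin, against 209, 206, 215 and 211 CPM with TGF-β alone. The groups stayed apart, with a modest difference. Its mean fell to 153 ± 7.69 CPM with chaetocin, against 210.4 ± 3.54 CPM with TGF-β alone, a log2 fold change of -0.46 ± 0.03 (edgeR, Benjamini-Hochberg adjusted p = 1.026e-13).

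Notch3, the receptor typical of smooth muscle cells and pericytes (ENSMUSG00000038146, chr17:32120820-32166852, minus strand), measured 7.95, 9.71, 9.0 and 7.72 CPM with chaetocin, against 21.2, 20.6, 20.3 and 20.3 CPM with TGF-β alone. All 4 chaetocin libraries lay under 10 CPM, and the TGF-β libraries differed little among themselves. The log2 fold change was -1.27 ± 0.08 (edgeR, Benjamini-Hochberg adjusted p = 1.22e-14). The smooth muscle and pericyte markers other than Notch3 summed to 239.8 to 266.7 CPM with chaetocin and 553.7 to 569.5 CPM with TGF-β alone. Mcam was the largest part of that sum, averaging 140.3 and 340.4 CPM. Of the 6 markers of that list that were tested, Notch3 among them, 1 was higher and 5 were lower. The marker that rose was Myh11, with a log2 fold change of 0.79. None of these markers was at 0 in every library, and their part in the Notch3 result was not tested.

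Notch4, known mostly from endothelial cells (ENSMUSG00000015468, chr17:34564268-34588503, plus strand), measured 2.82, 3.0, 3.27 and 3.32 CPM with chaetocin, against 8.27, 8.14, 7.31 and 8.80 CPM with TGF-β alone. This was the lowest receptor in CPM in both groups, and the groups were well apart. The log2 fold change was -1.40 ± 0.12 (edgeR, Benjamini-Hochberg adjusted p = 5.352e-11), the largest decrease among the receptors. The endothelial markers were mixed. They summed to 120.7 to 130.4 CPM with chaetocin and 69.4 to 77.8 CPM with TGF-β alone, and 6 of 10 were higher and 3 lower. Pecam1, Cdh5, Kdr, Tek, Vwf and Plvap rose, with log2 fold changes of 0.50 (Plvap) to 4.6 (Vwf). Kdr and Vwf had the largest differences in CPM, averaging 29.6 and 21.1 CPM with chaetocin, against 5.24 and 0.857 CPM with TGF-β alone. Tie1, Erg and Emcn fell, as Notch4 did, by 0.72, 0.68 and 0.62 on the log2 scale, and Flt1 was not called. None of the 10 was at 0 in every library, and their part in the Notch4 result was not tested.

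**Figure D1:**
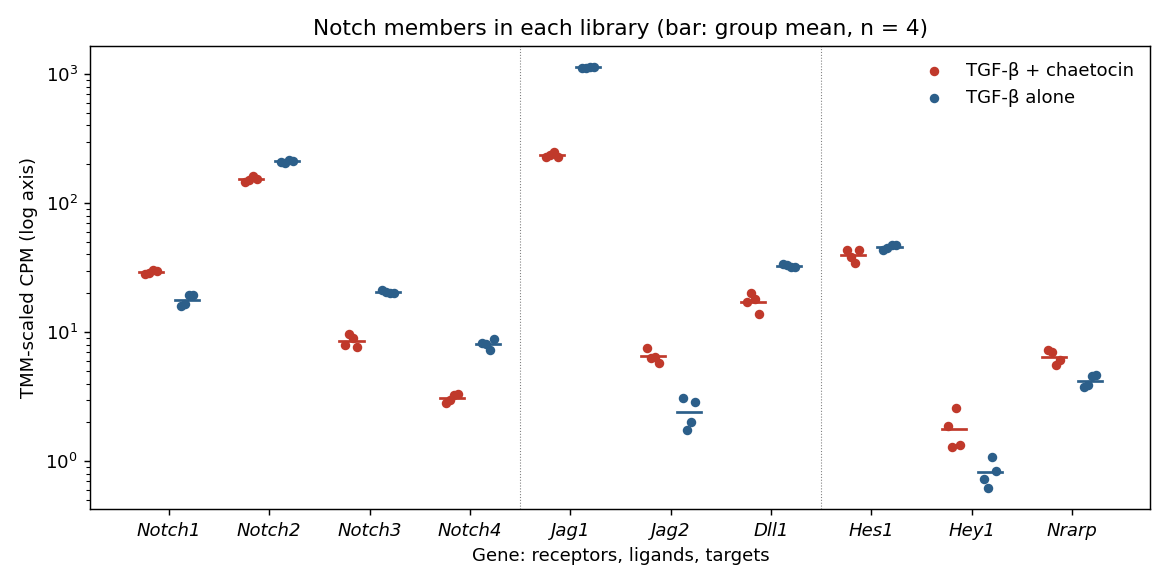
TMM-scaled CPM (log axis) of the 10 genes, ordered as receptors, ligands and targets; points are the 4 libraries of a group, with chaetocin plus TGF-β in red on the left and TGF-β alone in blue on the right, and bars mark the group means. The groups overlap only for Hes1, where the chaetocin libraries span 34.4 to 43.5 CPM and the TGF-β libraries 43.1 to 47.3 CPM.

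Jag1, a ligand that TGF-β is known to induce in epithelial cells (ENSMUSG00000027276, chr2:137081456-137116644, minus strand), measured 226, 234, 249.98 and 226 CPM with chaetocin, against 1116, 1116, 1132 and 1134 CPM with TGF-β alone. The groups are far apart, with every TGF-β library at 1116 CPM or more. The means were 234 ± 11.4 and 1125 ± 9.93 CPM (SD, n = 4 each), a log2 fold change of -2.27 ± 0.03 (edgeR, Benjamini-Hochberg adjusted p = 4.623e-30). Raw counts ran from 3542 to 5288 with chaetocin and from 21650 to 25782 with TGF-β alone, so counting error is small beside this difference. Of the 14608 genes tested, Jag1 had the 47th lowest log2 fold change.

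Jag2, the other Jagged ligand (ENSMUSG00000002799, chr12:112907819-112929776, minus strand), measured 7.56, 6.26, 6.47 and 5.80 CPM with chaetocin, against 3.08, 1.75, 2.03 and 2.86 CPM with TGF-β alone. Its groups did not overlap either, but the direction was the opposite of that of Jag1. The mean was 2.69 times higher with chaetocin, at 6.52 ± 0.746 CPM against 2.43 ± 0.640 CPM, and the log2 fold change was 1.42 ± 0.16 (edgeR, Benjamini-Hochberg adjusted p = 4.618e-09). These values rest on 91 to 177 counts per chaetocin library and 34 to 67 per TGF-β library.

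Dll1, a Delta ligand (ENSMUSG00000014773, chr17:15367354-15376872, minus strand), measured 17.1, 20.002, 17.9 and 13.7 CPM with chaetocin, against 33.7, 33.1, 31.8 and 31.8 CPM with TGF-β alone. All chaetocin libraries were below all TGF-β libraries, and they spread more widely. The log2 fold change was -0.92 ± 0.07 (edgeR, Benjamini-Hochberg adjusted p = 2.353e-12). Dll4, a Delta ligand known from endothelial tip cells and counted here with the other pathway genes, fell in the same direction, with a mean of 4.02 CPM with chaetocin and 9.91 CPM with TGF-β alone and a log2 fold change of -1.31. The part of the endothelial markers given above in the Dll4 result was not tested.

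Hes1, the classic Notch target and a transcriptional repressor (ENSMUSG00000022528, chr16:30064384-30067796, plus strand), measured 43.5, 38.4, 34.4 and 43.0 CPM with chaetocin, against 43.1, 44.9, 47.1 and 47.3 CPM with TGF-β alone. The highest chaetocin library lay above the lowest TGF-β library. The log2 fold change was -0.19 ± 0.06 (edgeR, Benjamini-Hochberg adjusted p = 0.00398), and the gene was not called when libraries were scaled by their total counts (-0.07, adjusted p = 0.248 by edgeR) or when FPKM was fitted with limma (-0.08 with 1 added, adjusted p = 0.28). Scaling by total counts moved the median of all genes to 0.14, where TMM scaling gave 0.02. Such scaling shifts all genes together, so the value of Hes1 relative to that median, -0.21 on either scale, was fixed in advance and tests nothing. Relative to the median of its own fit, Hes1 stood at -0.15 to -0.17 in the limma fits on FPKM and at -0.44 in edgeR without a filter. In CPM, Hes1 was the most abundant of the 3 targets and changed least.

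Hey1, a repressor related to the HES proteins (ENSMUSG00000040289, chr3:8663359-8667256, minus strand), measured 1.88, 1.28, 2.60 and 1.34 CPM with chaetocin, against 0.735, 0.619, 1.09 and 0.836 CPM with TGF-β alone. The groups did not overlap, but the counts were low: 44, 20, 39 and 21 with chaetocin, against 16, 12, 22 and 19 with TGF-β alone. The gene rose with a log2 fold change of 1.11 ± 0.27 (edgeR, Benjamini-Hochberg adjusted p = 4.67e-04), with the widest standard error of the 10 genes.

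Nrarp, an ankyrin repeat protein that binds the Notch intracellular domain and damps the pathway that induces it (ENSMUSG00000078202, chr2:25180758-25183339, plus strand), measured 7.26, 6.97, 5.54 and 6.12 CPM with chaetocin, against 3.77, 3.92, 4.54 and 4.66 CPM with TGF-β alone. The lowest chaetocin library stayed above the highest TGF-β library. The means were 6.47 ± 0.789 and 4.22 ± 0.447 CPM (SD, n = 4 each), and the log2 fold change was 0.62 ± 0.13 (edgeR, Benjamini-Hochberg adjusted p = 7.437e-05). No source used here says whether counting used strand, and GENCODE M21 places an antisense gene over 2051 exon bases of Nrarp. Smaller antisense overlaps lie on Notch1 (1068 and 414 bases), Dll1 (867 bases) and Notch3 (488 bases), and a same-strand overlap of 541 bases lies on Notch2. The counts of these 5 genes are less certain for that reason, whereas Notch4, Jag1, Jag2, Hes1 and Hey1 share no exon with another gene.

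**Figure D2:**
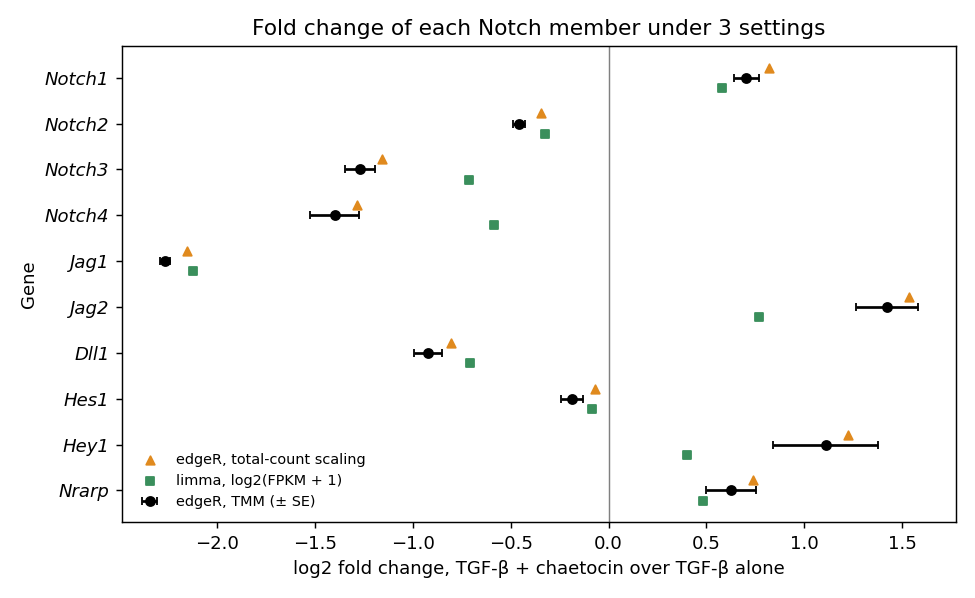
log2 fold change of the 10 genes, chaetocin plus TGF-β over TGF-β alone, on the horizontal axis: black circles are edgeR with TMM scaling and its SE (n = 4 each), triangles edgeR with total-count scaling, and squares limma on log2(FPKM + 1) without a filter, which understates the change of low genes. The vertical line marks no difference. Jag1 lies lowest at -2.27 and Jag2 highest at 1.42, and Hes1 lies closest to zero.

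Relative levels within a role were compared inside each library, where the scaling of libraries cancels. Counts of Notch1 were 0.184 to 0.194 of those of Notch2 with chaetocin and 0.0761 to 0.0928 with TGF-β alone, a difference of 1.17 in the log2 ratio. Notch1 had 2.97 to 3.82 times the counts of Notch3 with chaetocin and 0.749 to 0.965 times with TGF-β alone, so the order of this receptor pair in raw counts turned round. The ratio of Notch2 to Notch3 was 15.5 to 19.8 with chaetocin and 9.84 to 10.6 with TGF-β alone. The ratio of Jag1 to Jag2 moved most, at 29.8 to 38.7 with chaetocin and 360.0 to 627.6 with TGF-β alone, a difference of -3.72 in the log2 ratio. Jag1 to Dll1 stood at 11.7 to 16.4 with chaetocin and 33.1 to 35.7 with TGF-β alone. Among the targets, the ratio of Hes1 to Hey1 was 13.1 to 31.4 with chaetocin and 42.4 to 69.8 with TGF-β alone, and that of Hes1 to Nrarp 5.49 to 7.00 and 10.1 to 11.4. Each of the 7 ratios separated the groups completely, which in an exact two-sided permutation test gives p = 0.0286, the smallest that 4 libraries against 4 allow, and 0.0286 again after Benjamini-Hochberg adjustment over the 7. No share over other pairs of genes was computed, and single genes had groups that did not overlap in 74.7% of all genes tested. The pairs join genes with unequal fold changes given above, and the 3 receptor ratios depend on one another, so the 7 are not separate results. Ratios of counts depend on gene length and show only that the members of a pair changed unequally.

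**Figure D3:**
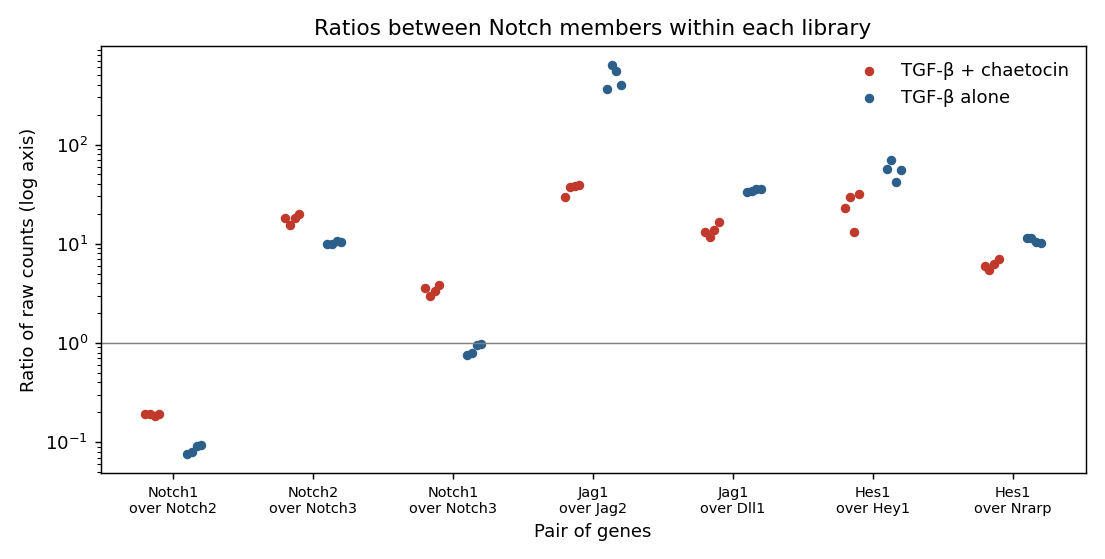
Ratios of raw counts of 2 genes within the same library (log axis), 1 point per library, chaetocin plus TGF-β in red on the left and TGF-β alone in blue on the right. The groups do not overlap for any of the 7 pairs, and the ratio of Jag1 to Jag2 lies between 29.8 and 38.7 with chaetocin, against 360.0 to 627.6 with TGF-β alone.

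Levels between genes were compared per transcript length, on the deposited FPKM (fragments scaled by transcript length and depth). With chaetocin the order was Jag1 at 43.3 ± 2.14 FPKM, Hes1 at 28.2 ± 3.01, Notch2 at 15.2 ± 0.773, then Dll1 at 4.99, Notch1 at 3.20, Nrarp at 2.60, Jag2 at 1.68, Notch3 at 1.12, Hey1 at 0.76 and Notch4 at 0.49 FPKM. The libraries of Notch3 and Hey1, neighbours in that order, overlapped. With TGF-β alone Jag1 stood first at 192.6 ± 2.0 FPKM, ahead of Hes1 at 29.8 ± 1.36 and Notch2 at 19.3 ± 0.341, then Dll1 at 8.74, Notch3 at 2.47, Notch1 at 1.81, Nrarp at 1.57, Notch4 at 1.24, Jag2 at 0.575 and Hey1 at 0.325 FPKM. Here Notch1 overlapped Nrarp, and Jag2 overlapped Hey1. The first 4 places were held by the same genes in both groups. Among all 22274 genes, Jag1 ranked 1735 by mean FPKM with chaetocin and 262 with TGF-β alone.

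Summed over the 3 ligands, FPKM was 47.67 to 53.3 with chaetocin and 199.92 to 203.48 with TGF-β alone. Jag1 made up 86.7% of that sum with chaetocin and 95.4% with TGF-β alone, Dll1 9.96% and 4.33%, and Jag2 3.36% and 0.285% (means of 4 libraries). The receptor sum was 18.89 to 21.19 FPKM with chaetocin and 24.29 to 25.39 FPKM with TGF-β alone. Notch2 held most of it, 75.9% with chaetocin and 77.7% with TGF-β alone. Notch1 supplied 16.0% and 7.3%, Notch3 5.58% and 9.98%, and Notch4 2.45% and 4.99%. The sum over the 3 targets overlapped between the groups, at 27.72 to 34.44 FPKM with chaetocin and 29.76 to 33.02 FPKM with TGF-β alone, and 89.3% and 94.0% of it was Hes1. These sums are descriptions of RNA and carry no test.

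**Figure D4:**
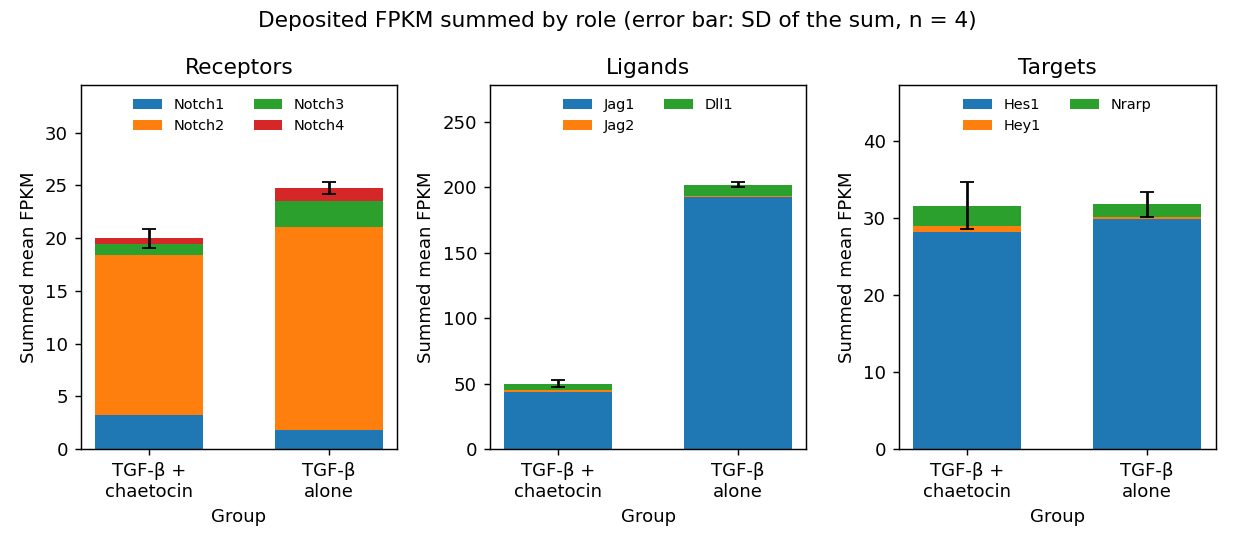
Deposited FPKM of receptors, ligands and targets, mean of 4 libraries stacked by gene, chaetocin plus TGF-β left and TGF-β alone right; error bars are the SD of the sum. The ligand stack is made mostly of Jag1 in both groups, and the target stacks lie within each other's spread.

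The rest of the pathway was read from 67 listed genes, of which 60 had enough counts to be tested. With chaetocin 13 rose (21.7%), 38 fell (63.3%) and 9 were not called, against 42.0% and 38.8% of all genes, and their median log2 fold change was -0.27. This balance moved with the scale: total-count scaling called 16 of the 60 higher and 31 lower, beside 7180 higher and 4514 lower in the whole table. TMM scaling gave 6129 and 5662 in the whole table. The filter mattered too, as fits without it also take in listed genes outside the 60. Limma on FPKM without a filter called 19 and 27 of the 67, beside 8623 and 4068, and with a filter 15 and 27, beside 5408 and 3973. With TMM scaling in edgeR, leaving out the filter gave 17 and 39, beside 7932 and 6065. The groups did not overlap for 76.7% of the 60. Of 6 genes that mature or glycosylate the receptors, 1 rose and 4 fell. Lfng, a fringe enzyme that extends sugars on Notch and tunes its choice of ligand, averaged 7.44 CPM with chaetocin and 20.8 CPM with TGF-β alone (log2 fold change -1.50). Poglut1, which adds O-glucose to Notch, averaged 38.2 and 72.6 CPM (-0.93). Rfng, another fringe enzyme, averaged 17.9 CPM with chaetocin and 8.13 CPM with TGF-β alone (1.15), opposite to Lfng.

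Of 6 genes for ligand endocytosis in the sending cell, 3 rose and 1 fell. The counts by list stand beside 42.0% of all genes tested called higher and 38.8% called lower. The ubiquitin ligase genes Neurl1b and Mib2 had log2 fold changes of 0.81 and 0.40. Mib1, which ubiquitinates ligands so that they can pull on Notch, averaged 192.4 CPM with chaetocin and 205.7 CPM with TGF-β alone (-0.10), a direction that turned to 0.02 under total-count scaling and to 0.15 on FPKM. Of 9 genes for cleavage, 1 rose and 7 fell. Aph1a, among those that fell (-0.08), had a higher mean FPKM with chaetocin, 40.3 against 38.1. Adam10, the protease that makes the cut induced by ligand, averaged 128.5 CPM with chaetocin and 228.1 CPM with TGF-β alone (-0.83). Aph1b, a γ-secretase subunit, averaged 65.8 and 23.8 CPM (1.46), and its close copy Aph1c 4.76 and 8.27 CPM (-0.80). Reads of Aph1b and Aph1c can be shared between these near-identical genes, so both values are uncertain.

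In the nuclear activation complex 1 of 8 genes rose and 7 fell, beside 42.0% and 38.8% of all genes tested. The Mastermind coactivator genes Maml2 and Maml3 had log2 fold changes of -0.83 and -0.84, and Kat2b, an acetyltransferase, averaged 57.5 CPM with chaetocin and 51.6 CPM with TGF-β alone (0.15). Rbpj, the DNA-binding partner of Notch, was named after its values were seen: it averaged 96.0 and 103.5 CPM (-0.11, adjusted p = 0.00683 by edgeR with Benjamini-Hochberg adjustment). Its mean FPKM was 18.6 with chaetocin and 18.5 with TGF-β alone, so this small decrease depends on the scale. Among 14 corepressor genes 2 rose and 11 fell. Kdm5a, among those that fell (-0.07), had a higher mean FPKM with chaetocin, 20.3 against 16.8. Spen, which recruits histone deacetylases to RBPJ, had the largest change of this list, with 433.6 CPM with chaetocin and 132.1 CPM with TGF-β alone (1.72). Tle4, a Groucho corepressor, averaged 30.0 and 16.5 CPM (0.86), whereas its relative Tle2 averaged 1.90 and 4.75 CPM (-1.28). L3mbtl3, an RBPJ partner that recruits a histone demethylase, averaged 31.3 CPM with chaetocin and 64.7 CPM with TGF-β alone (-1.05).

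Of 12 genes for receptor turnover and inhibition 3 rose and 6 fell, beside 42.0% and 38.8% of all genes tested. The ubiquitin ligase gene Nedd4 averaged 1060 CPM with chaetocin and 1910 CPM with TGF-β alone (-0.85), and the deltex gene Dtx4 57.9 and 119.7 CPM (-1.05). Dtx1, a deltex ligase and itself a known Notch target, had 189 counts in the 4 chaetocin libraries and 10 in the 4 TGF-β libraries, 22.8 times as many after allowing for depth (95% counting interval 12.1 to 48.3). Dtx3l averaged 113.8 and 37.3 CPM (1.61); it shares 458 exon bases with Parp9 on the other strand, a gene with a log2 fold change of 1.54. In the HES and HEY family beyond Hes1 and Hey1, 4 of 8 genes were tested. Hes3 had 282 counts with chaetocin and 1 with TGF-β alone, 340 times as many after allowing for depth (95% counting interval 60.5 to 13500). The single count lay in the first TGF-β library. The fitted log2 fold change was 7.78 with all libraries and 9.25 without that library, so its size rests on that count and is not well fixed. The limma values on log2 FPKM, 1.961 with 1 added and 4.844 with 0.1 added, move with the amount added and do not measure that size. Hey2 averaged 3.21 CPM with chaetocin and 1.56 CPM with TGF-β alone (1.03), and Hes6, which opposes Hes1, averaged 12.3 and 22.4 CPM (-0.85). Hes5, a Notch target in neural cells, was among the 7 genes with too few counts to be tested.

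**Figure D5:**
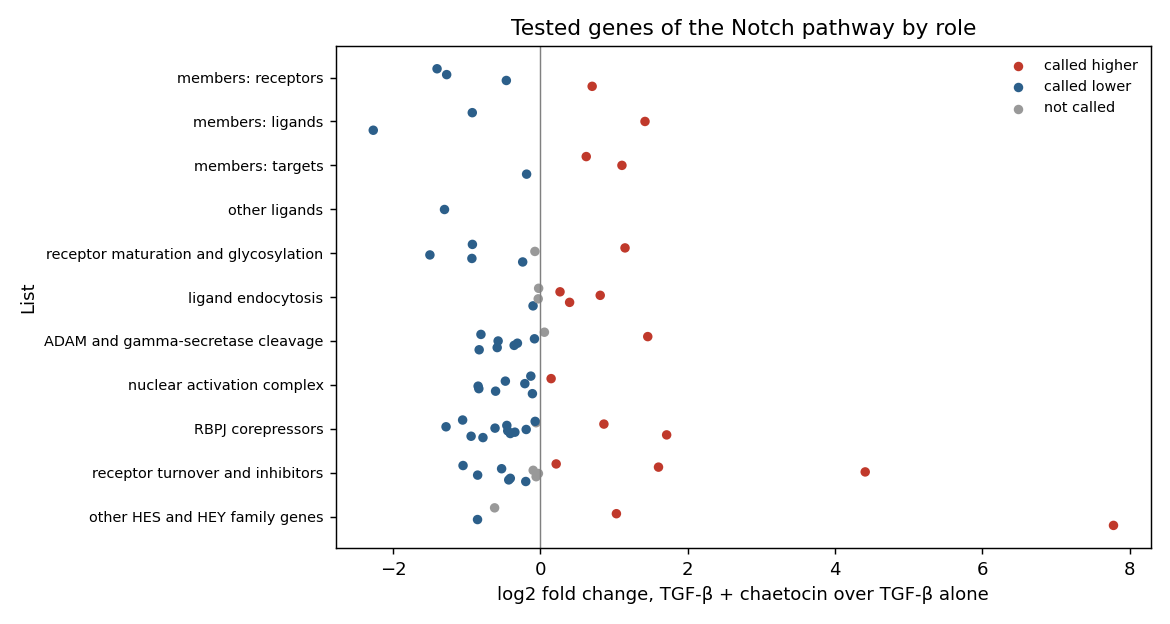
log2 fold change, chaetocin plus TGF-β over TGF-β alone, of the 10 genes (top 3 rows) and the 60 other tested pathway genes, grouped by role, 1 point per gene and coloured by its edgeR call. Cleavage, activation and corepressor genes lie mostly below zero, with Aph1b at 1.46 and Spen at 1.72 above it, and Hes3 and Dtx1, counted 1 and 10 times with TGF-β alone, lie farthest out.

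The genes whose pattern over the 8 libraries was most like that of Jag1, by Euclidean distance between centred log2 CPM, were Heg1, Abca1 and Ccbe1. Their distances were 0.103, 0.121 and 0.122, where the median gene lay at 3.249, and their log2 fold changes were -2.33, -2.26 and -2.28. Ccbe1 averaged 155 CPM with chaetocin and 753 CPM with TGF-β alone. For Jag2 the nearest were Chst4, Gm49322 and Pdzd9 at 0.335, 0.356 and 0.397, with a median of 1.965 over all genes. Their log2 fold changes were 2.38, 1.38 and 3.20, against 1.42 for Jag2. Chst4 averaged 1.42 CPM with chaetocin and 0.266 CPM with TGF-β alone, and Pdzd9 1.14 and 0.114 CPM. The distance used log2 of CPM plus 0.5, which shrinks changes at such low levels, so the likeness of Chst4 and Pdzd9 to Jag2 is uncertain. The Jag2 neighbours were less close than those of Jag1.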

How the data were processed

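Per the labels' protocols, an RNeasy kit gave the RNA and a SMARTER mRNA kit the libraries. The submitters' processing notes name the build GRCm38 (mm10). What aligner, counter, annotation release and strand setting were used is not given in the sources. The table deposited by the authors holds raw read counts and FPKM for each gene and library, per its header. The authors' mean FPKM, log2 ratio and p-value columns of the deposited table were not used for any result.

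Samples were grouped by their treatment label, 4 against 4. Deposited counts were tested with edgeR 4.0.16 in R 4.3.3 (filterByExpr, TMM, quasi-likelihood F test, Benjamini-Hochberg over 14608 genes, call at adjusted p under 0.05). The SE is the size of the log2 fold change divided by the root of F. Because nothing says that the libraries are separate cultures, p-values measure the spread between these libraries, which may be technical. Libraries of a group differed by more than counting noise, so none was merged for the tests. Only the depth-adjusted count ratios of Dtx1 and Hes3 pool the 4 libraries of a group. Alternatives used limma 3.58.1, DESeq2 1.42.0, other scalings and filters, and left out each library in turn. The scripts were tested on simulated data. Count ratios within a library had 0.5 added to each count in the test. The intervals of Dtx1 and Hes3 cover counting error only and leave out the spread between libraries.

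The genes and lists were chosen with earlier results of these data known. Named are all 10 genes and, per list of other pathway genes, up to 2 called genes in each direction with the largest change and a mean log2 CPM of at least 0, plus the 3 genes most like the highest and the lowest of the 10. Cell type markers (Vim, Col1a1, Col5a1, Lum, Dcn, Mcam, Myh11 and the epithelial and endothelial genes) fall outside this rule. So do Rbpj, Aph1a, Kdm5a and Parp9, and all were named after their values were seen. Aes was matched by ID as Tle5. Exons and positions are from GENCODE M21, GRCm38.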

Additional observations from a re-analysis of the deposited data

Results flagged for a closer look

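In the 4 chaetocin libraries the log2 ratio of Jag1 to Jag2 counts had 1 library far from the others. The first chaetocin library had a ratio of 29.8, and the other 3 had 37.2 to 38.7. Its gap to the nearest library was 0.849 of the whole range on the log2 scale, above Dixon's 95% critical value for 4 samples. In all, 34 groups of 4 values were examined this way, and chance flags about 1 in 20. That library was the deepest of its group, and its part in the result was not tested. The pattern holds for raw counts only: the ratios of deposited FPKM in chaetocin libraries 1 to 4 were 23.3, 34.0, 26.0 and 22.6, where library 1 does not stand apart and library 2 is highest. All 4 chaetocin libraries stayed far below the TGF-β libraries, which had ratios of 360.0 to 627.6.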

How the results depend on the processing

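Over the alternatives, 181 values of the 10 genes kept direction and call, 7 kept direction only and 0 reversed. The 7 are Hes1 under total-count scaling and under the 3 limma fits on FPKM, and Notch2, Hes1 and Nrarp under a test against a 1.5-fold minimum. Leaving out 1 library at a time kept all 10 calls, with log2 fold changes of -0.24 to -0.13 for Hes1 and -2.30 to -2.25 for Jag1. The 1.5-fold minimum called 4849 genes, 3357 higher and 1492 lower, against 11791 without it; of the 10 genes 3 were then higher and 4 lower, and of the other pathway genes 8 were higher and 15 lower, against 13 and 38. Mib1 reversed to 0.017 under total-count scaling and to 0.145, 0.149 and 0.145 in the limma fits on log2 FPKM with 1 added, 0.1 added, and 1 added without a filter. The 7 ratios kept their direction under FPKM and without each library, but their exact p stayed at the smallest value in each case, 0.0286, and FPKM comes from the same reads, so this says nothing about stability. Total-count scaling called 7180 genes higher and 4514 lower, and 16 and 31 of the other pathway genes. Of the limma fits, that on FPKM without a filter called 8623 and 4068, and 19 and 27 of the other pathway genes, and that on log2(FPKM + 1) with it called 5408 and 3973, and 15 and 27. Hes3 had log2 fold changes of 7.46 to 9.25 when 1 library was left out, the highest without TGF-β library 1. With the replicate number as a block, 11748 genes were called, and the counts for the 10 genes (4 higher, 6 lower) and the other pathway genes (13 and 38) were as without it. Libraries with the same number deviated together only weakly (r = 0.016 to 0.081), and not every library correlated best with its own number, so the numbers were not taken as pairs. Depth limits Hey1, with 12 to 44 counts per library, and the 7 pathway genes that were not tested.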
